A study of Mus musculus with 188 samples.

Results

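The circadian clock genes Arntl (also called Bmal1), Npas2, Clock, Per1, Per2, Per3, Cry1, Nr1d1, Nr1d2 and Dbp were followed in the aorta across a panel of mouse strains. They were taken by symbol, and every probe set annotated to 1 of these 10 symbols alone was used. Of the 10 genes, 9 were represented, by 15 of the 22327 probe sets tested. Nr1d1 was not among the genes named by the annotation used here and is not analysed. The study had hybridised aortic RNA to 188 Affymetrix HT_MG-430A arrays, to map variation in expression in inbred strains. The animals were wild-type males of 94 strains of the Hybrid Mouse Diversity Panel, aged 16 weeks, fed chow, kept on a light-dark cycle and given no treatment. Of the strains, 28 carry AXB or BXA names (recombinant inbreds from A/J and C57BL/6J), 28 carry BXD names (from DBA/2J and C57BL/6J), 10 carry BXH names (from C3H/HeJ and C57BL/6J) and 28 are inbred strains that include these 4 parents. The names BXD24/TyJ-Cep290<rd16>/J and BXD29-Tlr4<lps-2J>/J carry a mutant allele each. A single array was available for 9 strains, 2 arrays for 79, 3 arrays for 3 and 4 arrays for 3. Array titles are numbers, up to 1038 on 92 arrays and from 1067 on 96, and their meaning is not given in the labels.

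The molecular clock is a feedback loop of transcription that runs in nearly every cell, the smooth muscle and endothelial cells of arteries included. BMAL1 (the protein of Arntl) pairs with CLOCK or with its paralogue NPAS2, and the pair binds E-boxes and turns on the Per, Cry, Nr1d and Dbp genes. PER and CRY proteins inhibit that pair, the REV-ERB proteins of Nr1d1 and Nr1d2 repress Arntl and Npas2 through ROR elements, and DBP drives genes that hold D-boxes. In tissues collected around the day, transcripts of Arntl and Npas2 therefore peak when those of Dbp, Nr1d2 and Per3 are near their trough. The labels give no hour of collection.

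Promoter letters of 3 members are shown because the results below turn on these genes. RefSeq windows (GRCm38.p6) from 250 bases before to 50 bases after a transcript start were held for 9 of the 10 genes, in 13 windows. Both strands were searched for the E-box CACGTG, the D-boxes TTATGTAA and TTACGTAA, and the ROR elements TAGGTCA and TGGGTCA, none of which contains another. Capitals mark a match. The Per3 window holds TTATGTAA at 205 and at 158 bases before the start, and this motif occurs in 0.938% of all 32851 windows. The Cry1 window holds CACGTG at 60 bases before the start, found in 7.15% of windows, as Per1 does at 166 bases. A window of Arntl at a start inside the gene holds TAGGTCA at 31 bases after that start, found in 2.61% of windows. TTACGTAA (0.119% of windows) and TGGGTCA (3.98%) were in no member's window, and the windows of Npas2, Clock, Nr1d2 and Dbp held none of the motifs. The first and the second sequence are the 250 bases before the start, read on the minus strand from chr4:151044666-151044915 and chr10:85185055-85185304, and the third is a stretch of the plus strand, chr7:113207530-113207559.
Per3: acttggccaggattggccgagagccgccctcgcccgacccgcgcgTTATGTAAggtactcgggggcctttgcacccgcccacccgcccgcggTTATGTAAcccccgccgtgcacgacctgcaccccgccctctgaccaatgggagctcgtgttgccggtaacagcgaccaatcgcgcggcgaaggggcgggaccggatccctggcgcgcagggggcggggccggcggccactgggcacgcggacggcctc
Cry1: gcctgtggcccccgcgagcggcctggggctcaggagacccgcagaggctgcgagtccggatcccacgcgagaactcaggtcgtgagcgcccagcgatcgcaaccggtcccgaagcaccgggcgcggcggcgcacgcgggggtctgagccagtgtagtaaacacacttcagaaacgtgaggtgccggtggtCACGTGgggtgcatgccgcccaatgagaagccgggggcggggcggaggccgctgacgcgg
Arntl: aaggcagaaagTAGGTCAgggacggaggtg

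Several arrays stood apart from the rest, and results that rest on them are given with and without them. Over 22258 probe sets of genes that are no member and on none of the clock or glucocorticoid lists, the first principal component of within-strain deviations held 30.2% of the within-strain variance. An array's position on this component is called the broad axis here. The axis ran with Capza2 and Eif5 and against Abhd17a and Cuedc2, and 15 arrays lay below -0.5, the next at -0.47. The lowest array, C57L/J replicate 1, lay at -1.05 and had log2 levels of 3.96 for Clock, 4.18 for Nr1d2 and 5.23 for Arntl. Clock followed the axis within strains with r = 0.921, Nr1d2 with 0.859, Arntl with 0.739, Per1 with -0.606, Per2 with 0.511, Dbp with -0.472 and Per3 with 0.386, whereas Npas2 (-0.103) and Cry1 (0.0316) hardly did. These are descriptions over 177 arrays, and what sets the 15 arrays apart was not tested. The erythrocyte score correlated with the axis at -0.425, the smooth muscle score at -0.162 and the endothelial score at 0.0240. Defining markers of aortic cells were present, with mean log2 levels of 12.4 for Acta2 and 9.23 for Myh11 of smooth muscle and 8.12 for Pecam1 of endothelium. Tagln and the thymocyte marker Lck were not among the named genes. Markers of other tissues were high too, with means of 12.67 for Ucp1 of brown adipocytes, 10.52 for Myl4 of cardiac muscle and 10.17 for Ckm of skeletal muscle. Over arrays the skeletal muscle score ran from -4.55 to 4.09 and the cardiac muscle score from -5.89 to 2.24. The clock gene levels are therefore those of the whole sample, and the part that came from the vessel wall was not tested. On 77 arrays, scores of thymocyte or squamous epithelium genes exceeded 1. Within strains Cry1 followed the thymocyte score with r = 0.614 over 177 arrays and 0.679 without the 15, Clock with -0.314 and -0.514, Per3 with -0.350 and -0.322, and Arntl with 0.220 and 0.398. The slopes on Arntl below are therefore also given without the arrays high in these scores. In bulk tissue, fewer cells of a type and less RNA per cell cannot be told apart.

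Levels of 8 of the 9 measured clock genes in the aortic samples differed between strains. The test set the strains against the spread of arrays within them. For 4 of these 8 (Arntl, Per2, Cry1 and Nr1d2) more of the variance over all arrays lay within strains than between them. Of the 15 probe sets, 11 passed limma's F test across the 84 strains with at least 2 arrays, and of all probe sets 46.5% did. The intraclass correlation (ICC), the share of variance that lies between strains, was 0.662 for Npas2, 0.566 for Per1, 0.556 for Per3, 0.504 for Dbp, 0.450 for Arntl, 0.409 for Per2, 0.337 for Cry1, 0.292 for Nr1d2 and 0.123 for Clock. The median over the 9 genes, each by its strongest probe set, was 0.450, and that over their 15 probe sets was 0.409, against 0.182 over all probe sets. The probe sets that did not pass were both of Clock (adjusted p = 0.148 and 0.0715), a dim probe set of Per2 and a dim one of Per3. Without the arrays below -0.5 on the broad axis, all 9 genes and 13 of the 15 probe sets passed, against 52.7% of all probe sets. The ICC was then 0.547 for Arntl, 0.522 for Nr1d2, 0.519 for Per2, 0.251 for Cry1 and 0.297 for Clock (adjusted p = 0.0064). Of Arntl, Per2, Cry1 and Nr1d2, Cry1 alone thus still had more variance within strains. Arrays of a strain mostly carry consecutive title numbers, so a difference between strains and one between collections or array runs cannot be told apart. Nothing in the labels says that these arrays came from separate mice, so p-values measure the spread between arrays, which may be technical.

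**Figure D1:**
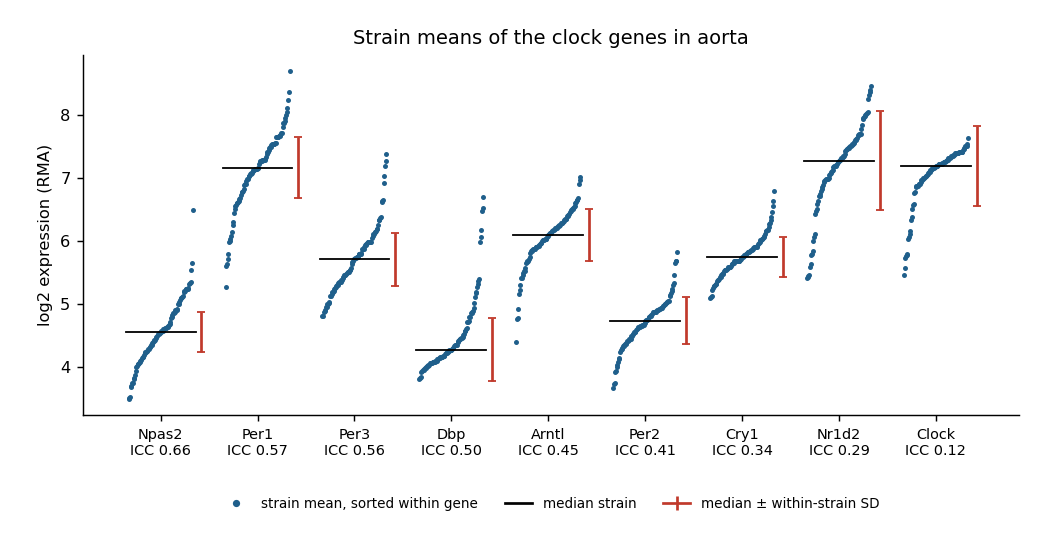
Log2 expression of the 9 measured clock genes, 1 blue point for the mean of each of 93 strains, sorted within gene, with genes ordered by ICC. Black lines are medians over strains, and red bars span the median ± the within-strain SD. The Npas2 strain means run from 3.49 to 6.49 against a within-strain SD of 0.311, whereas most Clock means lie within its SD of 0.638, and 6 strains stand above the others in Dbp.

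Among the activators, Arntl (probe set 1425099_a_at, gene at chr7:113178471-113314126) had a mean log2 level of 6.03, with arrays between 4.11 and 7.16. Its 2 arrays read 4.11 and 4.69 in BALB/cJ, 5.10 and 4.40 in BXD9/TyJ and 4.79 and 4.76 in BTBR T<+> tf/J, the lowest strains. Both BTBR T<+> tf/J arrays (-0.62 and -0.64) and BALB/cJ replicate 1 (-0.77) were among those low on the broad axis, which BXD9/TyJ and BALB/cJ replicate 2 were not. At the other end were RIIIS/J with 6.99 and 7.03, AXB1/PgnJ with 6.84 and 7.10 and BXA7/PgnJ with 6.66 and 7.16. The thymocyte score was 5.56 and 5.77 on the RIIIS/J arrays and 5.25 on BXA7/PgnJ replicate 2, which read 7.16, against -0.15 on replicate 1, and AXB1/PgnJ had -0.10 and -0.07. These ends were picked by the Arntl values themselves, and strains next to each other in this order differed by less than the within-strain SD of 0.413. Npas2 (chr1:39193702-39363240) was dimmer, with a mean of 4.55 at 1421037_at. Its highest level, 6.49, was on the single I/LnJ array, followed by BXD8/TyJ with 5.40 and 5.89, while AXB10/PgnJ (3.62 and 3.36) and BXH19/TyJ (3.51 and 3.49) were lowest. The other Npas2 probe set, 1421036_at, gave a correlation of 0.781 with the first over strain means and 0.306 over within-strain deviations. Clock (chr5:76209868-76305603) had a mean of 7.01. Its lowest strains were BTBR T<+> tf/J with 5.35 and 5.56, BALB/cJ with 4.68 and 6.47 and C57L/J with 3.96 and 7.51, so the last 2 rested on 1 low array each. Its 2 probe sets followed each other closely within strains (r = 0.928).

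The inhibitors varied as widely. Per1 (chr11:69095108-69109965), which glucocorticoids also induce, had a mean log2 level of 7.13. It read 8.46 and 8.95 in C58/J and 8.41 and 8.33 in AXB1/PgnJ, the highest strains. It read 5.19 and 5.36 in RIIIS/J and 5.51 and 5.69 in BXD13/TyJ, the lowest. The squamous epithelium score was 4.90 and 5.07 on the BXD13/TyJ arrays. Per2 (chr1:91415977-91459351; mean 4.69 at 1417602_at) was lowest in BXD13/TyJ too, with 3.76 and 3.55, and highest in BXD38/TyJ, with 5.62 and 6.05. Per3 (chr4:150997018-151044707; mean 5.71 at 1421087_at) read 7.36 and 7.41 in BXH19/TyJ, 7.21 and 7.35 in BXH22/KccJ and 7.15 and 7.23 in BXD9/TyJ. RIIIS/J was lowest in Per3 with 4.76 and 4.87, the strain that was highest in Arntl. Its other probe sets, 1460662_at and 1421086_at, were dim, with means of 3.58 and 3.12. Cry1 (chr10:85131700-85185054; mean 5.76) was highest on the I/LnJ array (6.80), in BXA25/PgnJ (6.36 and 6.92) and in RIIIS/J (6.62 and 6.49), and among replicated strains lowest in BXD9/TyJ (5.01 and 5.22). Of these high arrays, BXA25/PgnJ replicate 1 had a thymocyte score of 3.97 and replicate 2 lay at -0.63 on the broad axis. Both RIIIS/J arrays, low in Per1 and Per3 and high in Cry1, had the high thymocyte scores given above for Arntl.

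Nr1d2 (chr14:18204056-18239106), the gene of REV-ERB beta, had a mean log2 level of 7.13 at 1416958_at and the widest within-strain SD, 0.781. BXH19/TyJ was highest with 8.68 and 8.24, followed by BXD9/TyJ with 8.20 and 8.60. The lowest strains were SJL/J with 3.82 and 7.01, AXB23/PgnJ with 7.21 and 3.64 and KK/HlJ with 4.0 and 6.89, and in each the low array was one of those low on the broad axis. Dbp (chr7:45705100-45710203), whose protein is the D-box activator, was dim, with a mean of 4.48, and had a skewed distribution over strains. Its median over arrays, 4.27, lay below the lowest array median of 4.55. Whether this low level shapes the skew was not tested. BXD9/TyJ averaged 6.70, BALB/cJ 6.53, BXH22/KccJ 6.47, BXH19/TyJ 6.17, AXB10/PgnJ 6.06 and BXH2/TyJ 5.98. A gap of 0.586 separated these 6 strains from KK/HlJ at 5.40, while the median strain was at 4.27. The 6 strains had Arntl means between 4.40 and 5.85, all below the median strain's 6.09. MA/MyJ was lowest in Dbp with arrays at 3.74 and 3.87. The highest single array, 7.03, was BXA14/PgnJ replicate 2, outside the 6 strains, and replicate 1 read 3.69. Arrays also lay far apart in C57L/J (mean 5.27, SD 2.15) and BXA12/PgnJ (5.82 and 4.05). In the 6 high strains the SD between arrays ran from 0.107 in BXH2/TyJ to 0.515 in AXB10/PgnJ.

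To ask how much of the strain differences was separate from the position of an array in the cycle, a phase index was built as the mean of centred Arntl and Npas2 minus the mean of centred Dbp and Per3, leaving out the gene tested, and entered as a covariate. With the index, 12 of the 15 probe sets and 8 of the 9 genes still passed, against 53.4% of all probe sets. Npas2 kept an ICC of 0.657 and Per1 one of 0.582, while Arntl had 0.386 and Dbp 0.383. With the broad axis as the covariate, 12 probe sets and all 9 genes passed (49.3% of all probe sets). With both covariates 11 probe sets and 8 genes passed (51.7%), Nr1d2 being the gene that did not (adjusted p = 0.135). The index is made of expression levels and was not checked against the hour of collection.

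Within strains, slopes of clock genes on Arntl depended on which arrays entered the fit. Without the arrays low on the broad axis, the slope over 153 arrays was 0.51 ± 0.10 log2 units per log2 unit of Arntl for Cry1 (SE, adjusted p = 1.2e-04), -0.45 ± 0.14 for Per3 (adjusted p = 0.0083), -0.28 ± 0.09 for Per3 at 1460662_at (adjusted p = 0.010) and -0.48 ± 0.15 for Dbp (adjusted p = 0.011). These 4 of 14 probe sets passed, 1 positive and 3 negative, against 16.5% and 15.8% of all probe sets, so neither share of the members was far from the background. With scores of thymocyte, squamous and skeletal muscle genes as covariates over the 153 arrays, Cry1 had 0.27 ± 0.09 (adjusted p = 0.032), Dbp -0.54 ± 0.16 (0.015), Clock 0.29 ± 0.09 and 0.40 ± 0.10 (0.014 and 0.0031) and Per3 -0.34 ± 0.13 (0.073), and 4 positive and 2 negative probe sets passed, against 9.2% and 7.24% of all. Over the 69 arrays of 33 strains that were neither low on the axis nor high in thymocyte or squamous genes, only the 2 Clock probe sets passed, at 0.46 ± 0.14 (adjusted p = 0.035) and 0.58 ± 0.16 (0.024), against 4.1% positive and 5.52% negative. Cry1 there had 0.24 ± 0.14 (adjusted p = 0.25), Per3 -0.35 ± 0.23 (0.33) and Dbp -0.34 ± 0.19 (0.24), of the same sign as before. With all 177 arrays, 68.8% of all probe sets passed, 28.1% with a positive and 40.7% with a negative slope. Of the members 5 were then positive and 2 negative. They included both Clock probe sets (0.90 ± 0.13 and 1.00 ± 0.12), Nr1d2 (0.95 ± 0.17), Per2 (0.37 ± 0.09) and Per1 (-0.46 ± 0.11), none of which passed without the low arrays, where Nr1d2 had -0.09 ± 0.15 and Clock 0.06 ± 0.10. With the broad axis as a covariate over all 177 arrays, Cry1 had 0.55 ± 0.10 (adjusted p = 4.0e-04), Per3 -0.58 ± 0.13 (0.0020), Nr1d2 -0.55 ± 0.14 (0.0040) and Clock -0.33 ± 0.09 (0.0056), and Dbp did not pass (-0.35 ± 0.16, 0.12). In all 5 of 14 probe sets passed there, 1 positive and 4 negative, against 9.98% and 7.35%. When the first 2 or the first 3 components were covariates, 0 of 14 passed by limma (0.555% and 0.475% of all probe sets, with 2793 and 2690 below an unadjusted 0.05). Adjusted p for Cry1 was then 0.063 and 0.090 and for Per3 0.065 and 0.10, with slopes of 0.35 and 0.32 for Cry1 and -0.50 and -0.44 for Per3. Under the axis and the 3 scores together 0 of 14 passed as well (0.157% positive and 0.506% negative, 2871 below an unadjusted 0.05).

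Across the means of 93 strains the same genes opposed each other. Strains with more Arntl had less Dbp, with a slope of -0.88 ± 0.10 (SE, adjusted p = 8.5e-11), less Per3 (-0.51 ± 0.11, adjusted p = 7.5e-05) and more Cry1 (0.36 ± 0.07, adjusted p = 3.3e-06). Of 14 member probe sets 3 were positive and 4 negative, against 23% and 29.3% of all probe sets, which is near the background. With the broad axis as a covariate 2 were positive and 6 negative, against 4.74% and 6.56%. Cry1 then had 0.59 ± 0.07 (adjusted p = 1.8e-09) and Npas2 0.40 ± 0.14 (0.047), while Per3 had -1.0 ± 0.10 (9.2e-12), Dbp -0.92 ± 0.12 (1.2e-07) and Nr1d2 -0.74 ± 0.09 (7.0e-09). Ranked by p among 22326 probe sets, Per3, Cry1, Nr1d2 and Dbp held ranks 1, 2, 3 and 4. Ranked by correlation with Arntl among 11724 genes, with the broad axis taken out, Cry1 (r = 0.667) was the highest, and Per3 (-0.712), Nr1d2 (-0.651) and Dbp (-0.619) were the 3 lowest. With the axis left in, Dbp (-0.676) ranked 8 and Per3 (-0.428) 1340 from the bottom. Cry1 (0.494) then ranked 728 and Nr1d2 (0.130) 3169 from the top. Clock (-0.03 ± 0.06), Per1 (0.13 ± 0.16) and Per2 (-0.05 ± 0.11) did not pass in the fit with the broad axis as a covariate.

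Per3, Dbp, Cry1, Nr1d2 and Npas2 kept the direction of that fit when the low arrays were left out instead. Over the 92 strains that remained, Per3 had -0.91 ± 0.09 (adjusted p = 1.6e-12), Dbp -0.97 ± 0.11 (5.2e-10), Cry1 0.53 ± 0.06 (3.3e-09), Nr1d2 -0.46 ± 0.11 (0.0013) and Npas2 0.38 ± 0.13 (0.017). That made 2 positive and 4 negative probe sets of 14, against 14.5% and 14.3%, so the positive share was near the background. Clock, which had passed over all arrays (0.51 ± 0.09), had 0.15 ± 0.07 (adjusted p = 0.079). With 2 components as covariates 2 were positive and 5 negative (1.79% and 2.92%), and with 3 components 2 were positive and 3 negative (0.712% and 0.403%), namely Cry1 and Npas2 against Per3, Nr1d2 and Dbp. Over the 87 strains with Dbp up to 5.5, with the broad axis as a covariate, the Dbp slope was -0.29 ± 0.12 (adjusted p = 0.074), but leaving out strains by their Dbp level lowers the slope of Dbp by construction. Over those 87 strains Per3 (-0.94 ± 0.14, adjusted p = 4.6e-06), Cry1 (0.75 ± 0.09, 2.6e-09) and Nr1d2 (-0.60 ± 0.12, 2.0e-04) passed. In all, 1 positive and 4 negative probe sets of 14 stood against 10.7% and 10.9%, so the positive share was not above the background.

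Across strains the slopes of Per3, Dbp, Cry1, Nr1d2 and Npas2 also passed in each of 3 fits that took the scores of thymocyte and squamous genes into account. Over the 67 strains and 103 arrays that were neither low on the axis nor high in thymocyte or squamous genes, Dbp had -1.27 ± 0.13 (adjusted p = 1.2e-10), Per3 -0.76 ± 0.11 (3.7e-05), Nr1d2 -0.57 ± 0.13 (0.0086), Cry1 0.39 ± 0.07 (6.3e-04), Npas2 0.60 ± 0.12 (0.0025) and Clock 0.25 ± 0.06 (0.0091). These 3 positive and 3 negative probe sets of 14 stood against 2.29% and 1.4% of all. With the scores as covariates and the low arrays left out, 4 were positive and 4 negative (8.27% and 5.49%). With the scores and the broad axis as covariates over all arrays, 2 were positive and 4 negative (1.57% and 1.46%), and Per3 had -0.93 ± 0.10 (adjusted p = 3.3e-10), Cry1 0.55 ± 0.07 (3.1e-09) and Clock 0.07 ± 0.04 (0.43).

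**Figure D2:**
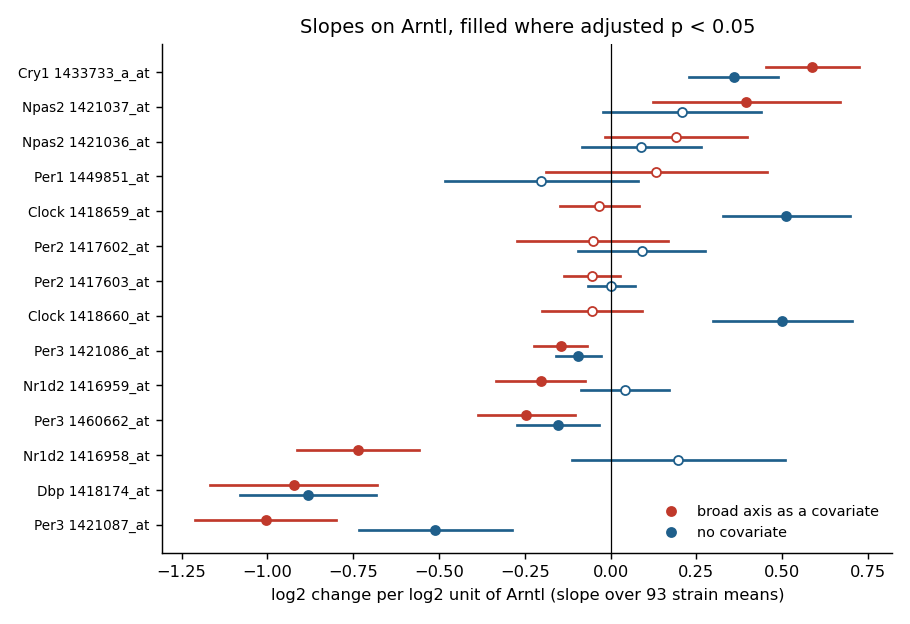
Slope of each member probe set on Arntl over 93 strain means, in log2 units per log2 unit of Arntl, with 95% intervals, filled where the adjusted p is below 0.05. Red points have the broad axis as a covariate and blue points have none. Per3, Dbp and the stronger Nr1d2 probe set lie furthest below 0 and Cry1 furthest above with the covariate, while both Clock probe sets pass above 0 without it and do not pass with it.

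The pairs set out for the antiphase were Arntl or Npas2 with Dbp or Per3, 4 correlations over 93 strain means. Arntl correlated with Dbp at Pearson r = -0.676 and Spearman rho = -0.536, each with a permutation p of 1e-05, the smallest that 100000 resamples can give, and 4e-05 after Benjamini-Hochberg adjustment over the 4. Without the 2 strains farthest from the median in Arntl, r was -0.578. Arntl with Per3 gave r = -0.428 (permutation p = 4e-05, adjusted 8e-05) and rho = -0.376 (3.2e-04, adjusted 4.3e-04), and r = -0.398 without the 2 farthest strains. Npas2 with Dbp gave r = -0.394 (permutation p = 1e-04, adjusted 1.3e-04), rho = -0.405 (7e-05, adjusted 1.4e-04) and r = -0.388 without the 2 farthest. Npas2 with Per3 was weak, at r = -0.209 (permutation p = 0.046, adjusted 0.046) and rho = -0.139 (0.18, adjusted 0.18), and r = -0.205 (permutation p = 0.051) without the 2 farthest. Without the arrays low on the broad axis, over 92 strains, Arntl with Per3 had r = -0.725 and rho = -0.660 (permutation p = 1e-05 each), and Arntl with Dbp had -0.675 (1e-05) with rho = -0.457 (3e-05). Npas2 then had -0.474 with Dbp and -0.195 with Per3 (permutation p = 0.062). The strains fell into a main body and 6 high in Dbp. Of the 6, AXB10/PgnJ, BXH2/TyJ and BXD9/TyJ, from different families, carry title numbers that follow each other without a break. BALB/cJ, BXH19/TyJ and BXH22/KccJ are numbered elsewhere. Strain and collection or array run cannot be told apart for this group. Within the 87 of the main body, Arntl with Dbp had r = -0.451 and rho = -0.443, and Arntl with Per3 -0.281 and -0.306. Npas2 with Dbp had -0.316 and -0.350 there, and Npas2 with Per3 -0.0576 and -0.0370. With the broad axis taken out, Arntl with Dbp over the 87 had r = -0.256 (permutation p = 0.017) and rho = -0.128 (0.24). Arntl with Per3 then had r = -0.594 and rho = -0.563 (permutation p = 1e-05 each).

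The 2 blocks of title numbers were compared as possible batches, each with 44 strains found in it alone. Arntl with Dbp was negative in both, at r = -0.759 (permutation p = 1e-05) among strains numbered from 1067 and -0.643 (8e-05) among those up to 1038. Without the low arrays it was -0.773 (permutation p = 1e-05) and -0.540 (0.0038). Its rho up to 1038 was then -0.239 (permutation p = 0.12), and its r without the 2 farthest strains -0.219 (0.17). Arntl with Per3 was -0.643 (permutation p = 1e-05) from 1067 and -0.179 (0.24) up to 1038. Without the low arrays, however, it was -0.788 and -0.646 (permutation p = 1e-05 each), over 44 and 43 strains. Npas2 with Dbp was -0.459 (permutation p = 0.0016) from 1067 and -0.263 (0.083) up to 1038, and Npas2 with Per3 was -0.426 (0.0040) and 0.160 (0.30), of opposite sign. The relation of Npas2 to Per3 thus held in 1 block only, and the difference between blocks was not tested for these correlations. Once the broad axis was taken out, Arntl with Dbp had a rank correlation of -0.492 (permutation p = 7.4e-04) from 1067 but -0.0273 (0.86) up to 1038. There its r of -0.354 was -0.0155 without the 2 farthest strains, so it rested on those 2.

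**Figure D3:**
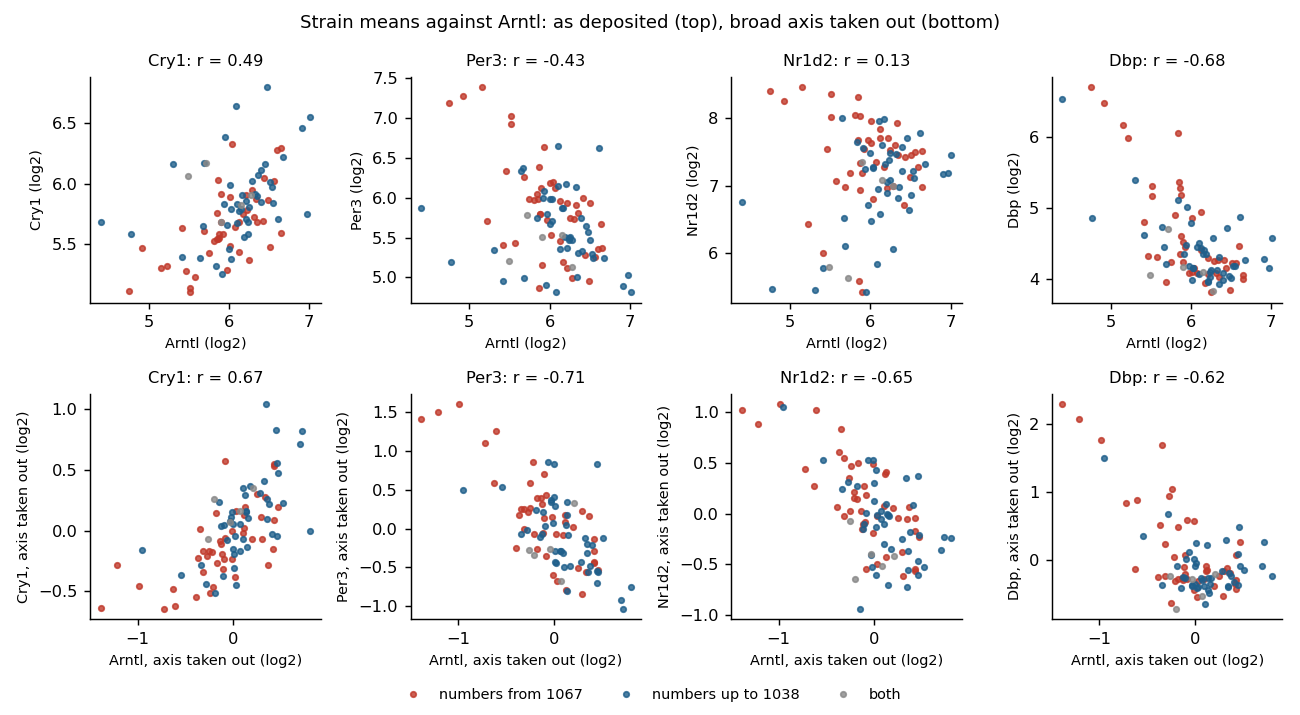
Strain means of Cry1, Per3, Nr1d2 and Dbp (y axes) against Arntl (x axes), all in log2 units, as deposited in the top row and with the broad axis regressed out in the bottom row. Each point is 1 strain, red for title numbers from 1067, blue for those up to 1038 and grey for strains in both. The 6 strains highest in Dbp have Arntl means between 4.40 and 5.85, and in the bottom row r with Arntl is 0.667 for Cry1, -0.712 for Per3, -0.651 for Nr1d2 and -0.619 for Dbp.

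Dbp as the axis in place of Arntl picked out few probe sets, and clock genes were many of them. With the broad axis as a covariate, 26 probe sets passed, 0.116% of all, and 5 of the 14 member probe sets were among them. Nr1d2 had slopes of 0.57 ± 0.05 (adjusted p = 4.4e-14) and 0.21 ± 0.04 (0.0022) at its 2 probe sets and Per3 one of 0.54 ± 0.08 (4.3e-06). Arntl had -0.42 ± 0.05 (1.3e-07) and Npas2 -0.42 ± 0.09 (0.0063). Also among the 26 were Nfil3, the D-box repressor (-0.78 ± 0.09), Cry2, a paralogue of Cry1 (0.24 ± 0.05), Tef, a D-box activator like Dbp (0.22 ± 0.05), and Cdkn1a, a cell cycle inhibitor (-0.47 ± 0.08 and -0.39 ± 0.07 at 2 probe sets). The probe set nearest to Dbp, 1438211_s_at (1.31 ± 0.05), is not listed in the annotation used here. Tef, Nfil3 and Cry2 were named after their values were seen. With Npas2 as the axis and the same covariate, 4 of 14 member probe sets passed against 8.74% of all.

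Over all arrays, no clock gene's difference between the 2 blocks of numbers passed the test. By limma with strain as a random effect, 0 of the 15 probe sets passed, against 1.73% of all probe sets (386), with 4106 below an unadjusted 0.05. The lowest adjusted p belonged to Cry1, 0.056, with 5.67 ± 0.30 over 49 strains numbered from 1067 and 5.87 ± 0.35 over 49 up to 1038 (SD of strain means), a difference of -0.20 ± 0.06 (SE). Nr1d2 came next among the genes, at 7.35 ± 0.66 and 6.93 ± 0.74, a difference of 0.43 ± 0.14 (adjusted p = 0.072). Arntl stood at 5.98 ± 0.43 and 6.09 ± 0.50, a difference of -0.09 ± 0.08 (adjusted p = 0.55). Without the arrays low on the broad axis, Nr1d2 (0.31, adjusted p = 0.033) and Clock at 1418660_at (0.22, adjusted p = 0.014) passed, both higher among numbers from 1067, against 2.46% of all probe sets. The slope on Arntl within strains was tested for a difference between the blocks as an interaction. Again 0 of 14 member probe sets passed, against 1.36% of all, with 4643 below an unadjusted 0.05.

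For 7 strains the arrays formed 2 separate runs of title numbers, which allowed the same strain to be compared with itself. By limma's F test 0 of 15 member probe sets differed between runs, against 0.39% of all probe sets, with 1089 below an unadjusted 0.05. Per3 nonetheless was lower in the later run than in the earlier run in 7 of 7 strains, by 0.11 in AXB19b/PgnJ and BXH4/TyJ up to 1.02 in AXB24/PgnJ, where the later arrays read 4.77 and 4.82 and the earlier one 5.81. Arntl was higher in the later run in 7 of 7, by 0.0029 in AXB19b/PgnJ up to 1.08 in C57BL/6J, where the later array read 6.21 and the earlier ones 5.71 and, on an array low on the broad axis, 4.55. Dbp was lower in 6 of 7, with BXD28/TyJ the exception. Adjusted p was 1.0 for each of these genes, and the shared direction was seen in the values and not tested. BXD28/TyJ, with 1 array per run, read 5.83 in the later and 5.09 in the earlier run for Arntl, and 6.06 and 6.62 for Per3.

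**Figure D4:**
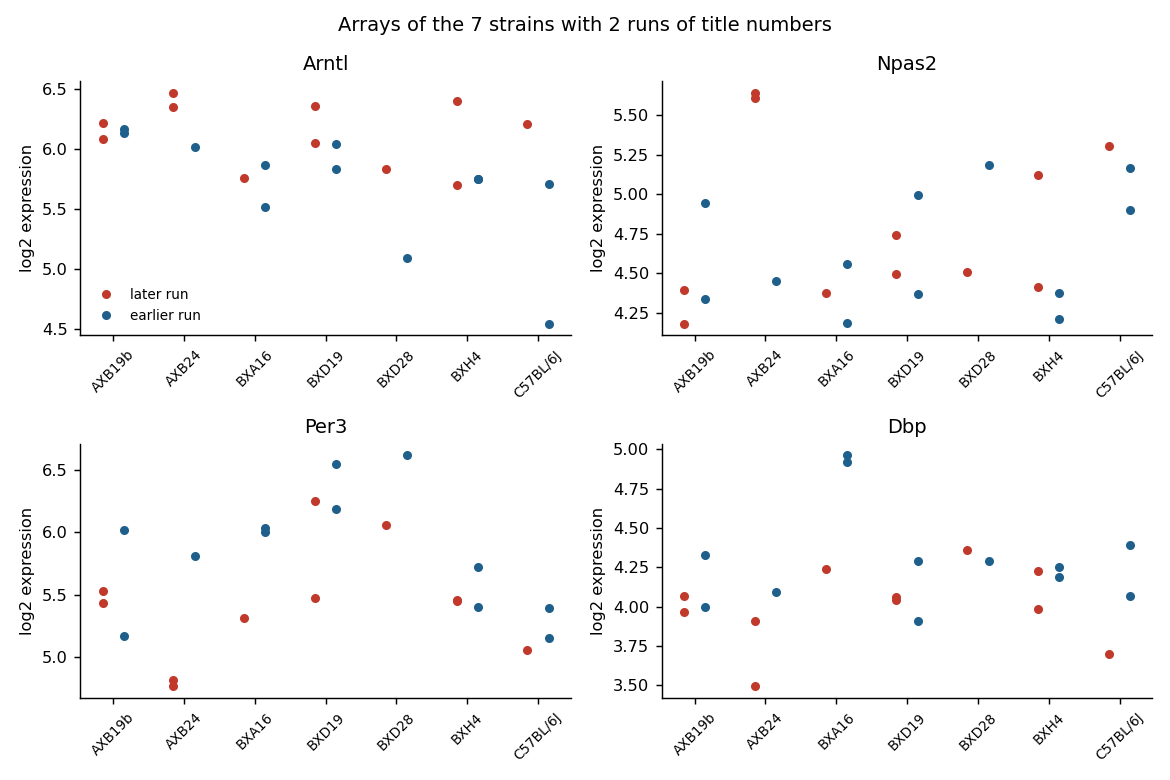
Log2 expression of Arntl, Npas2, Per3 and Dbp on each array of the 7 strains whose title numbers form 2 runs, red for the later and blue for the earlier run, with points for single arrays. In each strain the mean of the later run lies below that of the earlier run for Per3 and above it for Arntl, but single arrays overlap in several strains.

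The parents of the recombinant inbred families were set against C57BL/6J, with 2 arrays each against 3. Npas2 was lower in C3H/HeJ, at 4.13 and 3.72 on its arrays against 5.17, 4.90 and 5.30 in C57BL/6J, with no overlap. The difference was -1.20 ± 0.28 (SE, adjusted p = 0.0091), and this was the only 1 of 15 probe sets to pass in this contrast, in which 1.25% of all probe sets did. Without C3H/HeJ replicate 2 the difference was -0.996 and the adjusted p 0.43. The other Npas2 probe set, 1421036_at, differed by -0.66 ± 0.23 (adjusted p = 0.17). Without the arrays low on the broad axis this probe set passed in both C3H/HeJ (-0.91, adjusted p = 0.025) and A/J (-0.94, adjusted p = 0.021), where 1.18% and 0.864% of all probe sets passed. Without C57BL/6J replicate 3, Per1 passed as well in C3H/HeJ, at -1.50 (adjusted p = 0.046). A/J against C57BL/6J gave 0 of 15 (0.645% of all probe sets, 1991 below an unadjusted 0.05), with Per3 at 6.45 and 5.84 in A/J against 5.40, 5.16 and 5.06 in C57BL/6J, a difference of 0.94 ± 0.38 (adjusted p = 0.40). DBA/2J gave 0 of 15 as well (0.524%, 1048 below an unadjusted 0.05), also without the low arrays (0.623%, 1327 below). The C57BL/6J arrays themselves ranged from 4.55 to 6.21 in Arntl, which limits these contrasts.

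Clock genes also differed between strains within the recombinant inbred families. Among 22 BXD strains (46 arrays) 8 of 15 probe sets passed, against 15.1% of all probe sets: both of Npas2 and 1 each of Arntl, Per1, Per2, Per3, Nr1d2 and Dbp. Arntl spanned 4.75 in BXD9/TyJ to 6.65 in BXD8/TyJ there (ICC 0.624, adjusted p = 0.0034). With the phase index as a covariate 6 passed (18.7% of all), and Arntl (adjusted p = 0.093) and Per3 (0.069) did not. Under the broad axis 7 passed (11.6%), and without the low arrays, none of which was a BXD array in this test, 8 (15.1%). Among 27 AXB and BXA strains (58 arrays) only the 2 Npas2 probe sets passed (3.81% of all), spanning 3.49 in AXB10/PgnJ to 5.23 in AXB24/PgnJ at 1421037_at (adjusted p = 0.0045). In 9 BXH strains (20 arrays) 3 passed (1.26% of all): Dbp with an ICC of 0.959 (adjusted p = 1.3e-05), Per3 with 0.766 (0.024) and Per2 with 0.773 (0.031). Under the phase index 2 passed in AXB and BXA strains (4.52%) and 1 in BXH strains (0.824%), and under the broad axis 4 (8.17%) and 6 (2.71%). Without the arrays low on the broad axis 4 passed in AXB and BXA strains (13.9%) and 6 in BXH strains (2.47%). Nr1d2 and Per1 were then among them, with an adjusted p of 0.0028 and 0.031 in the AXB and BXA strains and of 0.0063 and 0.0041 in the BXH strains.

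Dbp split the BXH strains. Arrays read 6.31 and 6.64 in BXH22/KccJ, 6.42 and 5.92 in BXH19/TyJ and 6.06 and 5.91 in BXH2/TyJ. The other 15 arrays, the single BXH10/TyJ array included, lay between 3.84 and 4.85. The groups were named from these same values. C3H/HeJ, a parent, read 4.02 and 4.28, and the other parent, C57BL/6J, 4.07, 4.39 and 3.70, both among the low arrays. BXH22/KccJ and BXH19/TyJ were also highest in Per3, but BXH2/TyJ was not, with 5.18 and 6.24. Its Nr1d2 level was 4.63 on 1 array and 8.22 on the other, the first being low on the broad axis. Arntl was between 4.61 and 5.39 on these 6 arrays, and between 5.27 and 7.09 on the other 15. BXH2/TyJ, BXH19/TyJ and BXH22/KccJ have no other BXH strain numbered between them, but other strains are numbered there. Among those, BXD9/TyJ (6.55 and 6.84) and BXD1/TyJ (5.17) were high in Dbp. MA/MyJ (3.74 and 3.87) and BXD21/TyJ (4.06 and 3.97), also numbered there, were low. The arrays of each of these BXH strains carry consecutive numbers. Strain and collection or array run therefore cannot be told apart in this split.

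**Figure D5:**
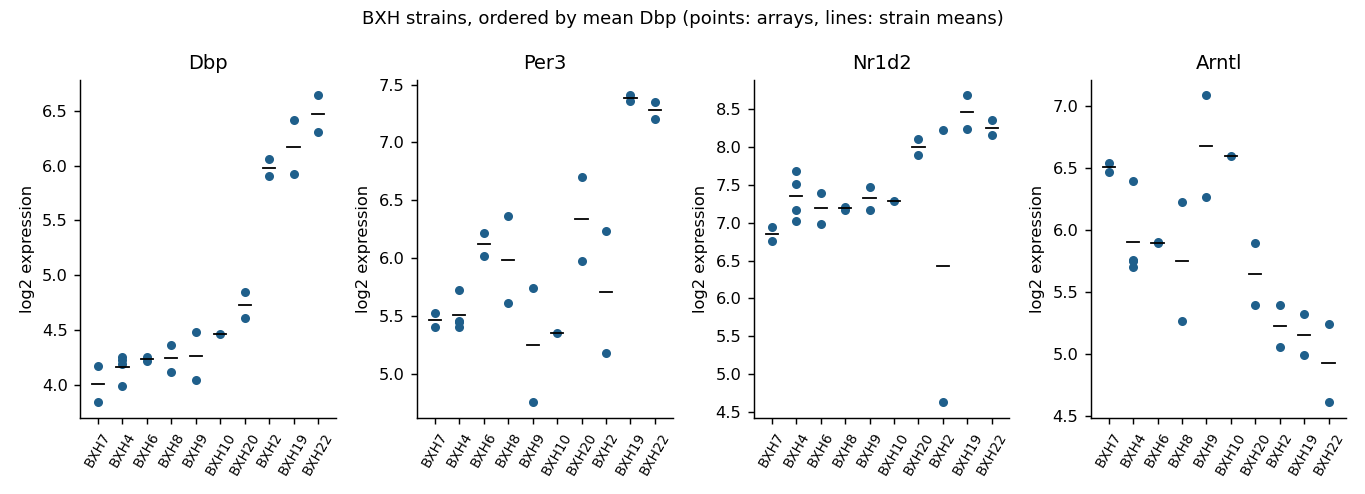
Log2 expression of Dbp, Per3, Nr1d2 and Arntl on every array of the 10 BXH strains (points), with strain means as lines and strains ordered by mean Dbp. BXH2/TyJ, BXH19/TyJ and BXH22/KccJ form a group of their own in Dbp, from 5.91 to 6.64 against 3.84 to 4.85 in the other strains, and lie low in Arntl.

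Of 18 further clock genes listed for comparison, 15 were measured and 11 differed between strains in the strain test (46.5% of all probe sets). The smallest p belonged to Nfil3 (ICC 0.688), Tef (0.481), Bhlhe40, a repressor of E-box genes (0.464), and Hlf, a D-box activator (0.445). On the Arntl slope across strain means with the broad axis as a covariate, 3 of the 15 were positive and 3 negative (4.74% and 6.56% of all probe sets). Nfil3 rose with Arntl at 0.70 ± 0.16 (adjusted p = 0.0033), as did Rora, the activator at ROR elements, at 0.30 ± 0.09 (0.025), and Csnk1e, a kinase of PER proteins, at 0.26 ± 0.08 (0.018). Hlf at -0.52 ± 0.10 (4.9e-04), Tef at -0.35 ± 0.07 (0.0012) and Bhlhe40 at -0.48 ± 0.12 (0.0045) fell. Cry2, at -0.14 ± 0.08 (adjusted p = 0.22), did not pass, nor did Csnk1d at 0.08 ± 0.04 (0.22).

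Genes whose within-strain deviations were most like those of Arntl over 177 arrays were Naca (r = 0.808), Cdc5l (0.804), Hnrnpab (0.792), Hmgb1 (0.787) and Med4 (0.786), and the least like were Gstm4 (-0.816), Oaf (-0.799), Nabp2 (-0.791), Sardh (-0.779) and Pdia5 (-0.771). No clock gene was among these. With the broad axis taken out the highest were Spns1 (0.537), Ing1 (0.530) and 2410002F23Rik (0.502), so none of the 5 highest stayed among the 5, whereas Pdia5 (-0.560), Gstm4 (-0.521) and Oaf (-0.502) stayed among the 5 lowest. For Dbp, Ttc39c (0.735), Ass1 (0.717) and Ephx1 (0.684) were the most like and Tmeff1 (-0.695), Map4k4 (-0.665) and Ptp4a1 (-0.656) the least. Ttc39c (0.687), Ass1 (0.614) and Ptp4a1 (-0.598) stayed among the 3 most or least like Dbp with the axis out. These are descriptions over arrays that share strains and the broad axis.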

How the data were processed

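GCOS and RMA (background adjustment, quantile normalisation and a summary per probe set) were used per the submitters' processing notes, and the deposited values are log2 expression, 1 per probe set and array. Neither versions nor a genome build are named in the sources used here. Array medians lay between 4.55 and 4.88. Of 22416 probe sets, 89 controls were left out. Of the rest, 17783 carried 1 symbol in the platform annotation, 284 several and 4260 were not listed, and 11725 genes were named. Gene positions are those of RefSeq on GRCm38.p6. No pair of arrays was identical, the closest having r = 0.994 and a mean absolute difference of 0.170.

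The members and gene lists were chosen with earlier results of these data known. Groups were the strains in the labels, and replicate numbers follow accession order. The 2 BXD32/TyJ arrays, whose descriptions carry an unexplained suffix, were left out except where named, leaving 186 arrays. The probe set with the highest mean stood for a gene. Tests were limma 3.58.1 in R 4.3.3, with Benjamini-Hochberg adjustment over all 22327 probe sets and a threshold of 0.05: an F test over strains, slopes on Arntl with strain as a factor or over strain means, title block with strain as a random effect (duplicateCorrelation), runs within strain, and contrasts of parents. Intervals are 95%. Correlations had two-sided permutation tests. Named beyond the members were the 4 listed genes with the smallest strain p in each list, listed genes on the Arntl slope, and the genes most and least like Arntl and Dbp. Alternatives were array medians made equal, a second quantile normalisation, a filter at a mean of 5, arrays left out, other axes and covariates. Added after seeing the data were the broad axis, its further components, the limit of -0.5 on it, the limit of 5.5 for Dbp, joint settings of the axis with marker scores, and likeness over strain means. The procedures were tested on simulated data. The number of arrays per strain limits the precision of each strain mean.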

Additional observations from a re-analysis of the deposited data

Results flagged for a closer look

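Of the strains, 3 have 4 arrays, and in these 45 sets of 4 values were examined for 1 array far from the other 3. By Dixon's criterion (gap over range above the critical value for 4 arrays) 6 were found, and chance gives about 1 in 20. In BXD19/TyJ, 1 array read 3.58 for Per3 at 1460662_at against 4.02, 4.03 and 4.04 on the others, 1 read 3.93 for Npas2 at 1421036_at against 3.71, 3.72 and 3.73, and 1 read 6.73 for Clock at 1418660_at against 6.22, 6.26 and 6.29. In BXH4/TyJ, 1 array read 6.40 for Arntl against 5.70, 5.75 and 5.76, and 1 read 4.59 for Per2 at 1417602_at against 4.72, 4.73 and 4.74. AXB19b/PgnJ had 1 array at 4.67 for Nr1d2 at 1416959_at, with the others at 4.31, 4.33 and 4.33. The gaps for Per3, Arntl and Nr1d2 exceed the within-strain SD of their probe set over all strains (0.256, 0.413 and 0.324), and those for Npas2, Clock and Per2 do not (0.257, 0.638 and 0.372). No cause was tested.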

How the results depend on the processing

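All alternatives listed were run, except that in BXD strains the model with the title number block as a covariate could not be fitted. Of the counts and correlations below, 171 of 218 values under an alternative kept their direction and their side of the threshold, or lay within 1.5 times of the reported count, and 1 changed sign. The cause of the changes was not tested, apart from the filter at a mean of 5, which removes dim probe sets by construction. Counts are of member probe sets that passed, and "rose" or "fell" within strains or across strain means refers to the slope on Arntl. Signs are compared with the slope over all arrays without a covariate, and a change is listed where at least 1 of the 2 slopes passed. That filter left 6 called probe sets in the strain test, 6 with the phase index, 1 falling with Arntl within strains, 1 falling across strain means, 0 falling in C3H/HeJ, and 0 in AXB and BXA, 4 in BXD and 1 in BXH strains. With array medians made equal, 4 fell within strains and Npas2 with Per3 had r = -0.179 (permutation p = 0.086). After quantile normalisation again, 1 fell (Cry1) between title blocks. Without arrays high in thymocyte or squamous genes, 0 were called in AXB and BXA and 1 in BXH strains. In BXH strains 1 was called with the phase index and 1 with the title number block as a covariate.

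Without arrays low on the broad axis, 1 rose within strains, 2 rose between title blocks, 1 fell in A/J and 2 fell in C3H/HeJ, and 4 were called in AXB and BXA and 6 in BXH strains. Npas2 with Per3 had r = -0.195 (permutation p = 0.062). Within strains Per3 turned to -0.45 and Nr1d2 to -0.0871, and across strain means Nr1d2 turned to -0.46. Entered as a covariate, the axis left 1 rising and 4 falling within strains and 4 called in AXB and BXA and 6 in BXH strains, and Npas2 with Per3 had r = -0.194 (permutation p = 0.062). Slopes within strains then changed sign for Clock (-0.33 and -0.0413), Per1 (0.13), Per3 (-0.58) and Nr1d2 (-0.55), and across strain means for Clock (-0.03295 and -0.05445) and Nr1d2 (-0.74 and -0.20). With the first 2 components 0 rose and 0 fell within strains, and Clock (-0.14), Per1 (0.23) and Nr1d2 (-0.48) changed sign there, as did Nr1d2 across strain means (-0.75 and -0.23). With the first 3 components 0 rose and 0 fell within strains, where Clock had -0.11, Per1 0.25 and Nr1d2 -0.51, and across strain means Nr1d2 had -0.82. With the axis and without strains high in Dbp, 1 rose across strain means, and Clock (-0.21 and -0.17) and Nr1d2 (-0.60) changed sign. Per3, which passed neither over all arrays nor with the components, had -0.50 and -0.44 with the first 2 and the first 3. Leaving out low arrays with marker scores as covariates changed the sign of Per1 (0.0971) and Nr1d2 (-0.0015) within strains and of Nr1d2 across strain means (-0.55). Leaving out low arrays and those high in thymocyte or squamous genes left 2 rising and 0 falling within strains, with Nr1d2 at -0.0944 there and -0.57 across strain means. The axis and marker scores as joint covariates left 0 rising and 0 falling within strains, with Clock at -0.0996, Per1 at 0.30 and Nr1d2 at -0.51 there, and Nr1d2 at -0.80 and -0.24 across strain means.

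With Dbp in place of Arntl and its sign turned, 1 fell within strains, and 5 rose and 2 fell across strain means. With Npas2 in its place 0 rose and 0 fell within strains, and 1 rose and 1 fell across strain means, with changed signs for Clock (-0.0257), Per1 (0.42) and Nr1d2 (-0.59) within strains and for Per3 (0.0053 and 0.00036) across them. As within-strain deviations over all arrays, Arntl had r = -0.478 with Dbp and 0.0285 with Per3, and Npas2 had -0.270 with Dbp. Without strains high in Dbp, Npas2 with Per3 had r = -0.0576 (permutation p = 0.59).

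When each array of the strains with 3 or 4 arrays and of A/J, DBA/2J and C3H/HeJ was left out in turn, 11 to 12 probe sets were called in the strain test (the added one being Clock at 1418660_at, adjusted p = 0.049, without BXA16/PgnJ replicate 3), 12 to 12 with the phase index, and 5 to 5 rose and 2 to 2 fell with Arntl within strains. Between runs 0 to 0 were called, in A/J and in DBA/2J 0 to 0 rose or fell, and in C3H/HeJ 0 to 0 rose and 0 to 2 fell. No paired analysis was possible because replicate numbers follow accession order alone and pair no arrays across strains. The 2 arrays of most strains limit the precision of each strain mean.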

Other observations

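Genes induced by glucocorticoids, the class to which Per1 belongs, also differed between strains. Of 10 listed, 9 were measured and 9 passed the strain test, against 46.5% of all probe sets, with a median ICC of 0.554. Errfi1, an inhibitor of the EGF receptor, had an ICC of 0.767 with a strain mean of 6.39 in RIIIS/J, the lowest, and of 10.9 in C58/J, the highest, on the log2 scale. The metallothionein Mt1 (ICC 0.711) ran from 10.8 in RIIIS/J to 13.1 in AXB1/PgnJ, Tsc22d3 (0.647), the leucine zipper protein GILZ, from 6.56 in BXD28/TyJ to 10.9 in AXB1/PgnJ, and Zbtb16 (0.597), a zinc finger transcription factor, from 4.16 in BXD11/TyJ to 8.03 in C58/J. Per1 itself was highest in C58/J and AXB1/PgnJ and lowest in RIIIS/J, whose arrays had the high thymocyte scores given above for Arntl. Genes listed as targets of the clock were measured for 8 of 12, and 7 passed: Herpud1 had an ICC of 0.722, Cdkn1a 0.508, Usp2 0.481 and Tspan4 0.428. On the Arntl slope over strain means with the broad axis as a covariate, Cdkn1a alone of these 8 passed, at 0.54 ± 0.11 (SE, adjusted p = 0.0012), and of the glucocorticoid list Tsc22d3 (0.79 ± 0.19, adjusted p = 0.0037), Fkbp5 (0.85 ± 0.24, 0.012) and Cdkn1a, which is on both lists, passed. Whether handling, hour or strain moves these genes was not tested.

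Arrays next to each other in title number differed less for most of the genes below when they shared a strain than when they did not. The median absolute difference in Npas2 was 0.257 over 86 neighbouring pairs of the same strain, 0.541 over 86 neighbouring pairs of different strains and 0.531 over the 17100 pairs of different strains at any distance. For Arntl the values were 0.311, 0.462 and 0.468, for Dbp 0.293, 0.484 and 0.425, and for the phase index 0.377, 0.820 and 0.706. For Nr1d2 at 1416958_at they were 0.419, 0.438 and 0.626. Per1 had 0.277, 0.537 and 0.666, Per3 0.313, 0.468 and 0.586, and Clock 0.213, 0.276 and 0.317. Per2 had 0.317, 0.359 and 0.445, and Cry1 0.285, 0.298 and 0.369. In Nr1d2, Per1, Per3, Clock, Per2 and Cry1, neighbours of different strains thus differed less than pairs of different strains at any distance. The 2 BXD32/TyJ arrays, not in these pairs, read 5.17 and 6.87 for Arntl, 5.13 and 7.66 for Clock and 4.98 and 7.30 for Nr1d2, the first being low on the broad axis.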
